A study of Mus musculus with 6 samples.

Results

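The genes described here encode the LIM cofactor complex: the adaptor proteins Ldb1 and Ldb2, their binding partners Ssbp2, Ssbp3 and Ssbp4, and the LIM-only proteins Lmo1, Lmo2, Lmo3 and Lmo4. The members were all peaks of open chromatin that the authors' deposited table assigns to 1 of these 9 genes, 44 of 70494 peaks in the table. Each of the 9 genes had at least 1 peak, of 26796 genes with a peak in all. The family was chosen by the deposited fold change of an intronic Ssbp3 peak, so the fold changes, counts and adjusted p-values given for its peaks are a description of the contrast that selected them and not a test.

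Open chromatin was mapped with ATAC-seq, a method whose transposase cuts accessible DNA and tags it for sequencing, in mouse definitive endoderm, the embryonic layer that gives rise to gut, liver and pancreas. All 6 libraries came from 1 line, 7H OTX2-dTAG-EGFP (strain BL6/129 hybrid), of epiblast stem cells (cultured counterparts of the epiblast, from which all tissues of the embryo form) whose OTX2 carries a degradation tag and EGFP, controls included. Cells received 40 ng/ml Activin A and 3 uM CHIR, an activator of WNT signalling, for 16 h. They then received 100 ng/ml Activin A and 100 nM LDN, an inhibitor of BMP receptors, for 24 h. From the primitive streak stage, 3 samples had dTAG13, which directs the tagged OTX2 to degradation, and 3 had its solvent DMSO, for 24 h each. Live cells were sorted, and 50000 went into each library. The labels do not say whether the line is a single clone or whether both Otx2 copies are tagged. The submitters describe the 3 libraries of each group as technical replicates, and their spread need not include that between separate cultures. In bulk libraries such as these, fewer cells with an open region and less signal per cell cannot be told apart.

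LDB proteins have no enzymatic or DNA-binding activity of their own. They dimerise and hold the LIM domains of LIM homeodomain factors and of LMO proteins, and so bring distant DNA-bound complexes together. SSBP proteins bind LDB and protect it from degradation, whereas LMO proteins, which have LIM domains but no homeodomain, can bridge other factors to LDB or compete for it. In the mouse embryo, the LIM homeodomain factor Lhx1, Ldb1, Ssbp3 and Otx2 are each known to be needed for formation of the head.

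Of the 43 member peaks with an adjusted p in the authors' deposited table, 5 (11.6%) were lower in dTAG13 with an adjusted p under 0.05, beside 3.79% of all 69128 peaks with one. None of the members was higher at that threshold, against 1.47% of all peaks. At an unadjusted p under 0.05, the authors' deposited table holds 9 of the 44 member peaks (20.5%), 8 lower and 1 higher, and 19.7% of all peaks, a share near the background. The 5 lower peaks lay at Ssbp3 (2 peaks), Lmo2, Lmo1 and Ldb1. These are the sequences on which the description turns, shown on the plus strand of GRCm38.p6 (build mm10). Capitals mark the OTX consensus GGATTA, which reads as TAATCC on the other strand, in the first Ssbp3 peak and in those of Lmo2 and Lmo1, and the GATA consensus AGATAA, which reads as TTATCT, in the other Ssbp3 peak and at Ldb1. GATA was marked only where a peak's bases held no OTX consensus, and matches to other motifs were not marked.

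Ssbp3, chr4:106993947-106994141, intron 4 of 8: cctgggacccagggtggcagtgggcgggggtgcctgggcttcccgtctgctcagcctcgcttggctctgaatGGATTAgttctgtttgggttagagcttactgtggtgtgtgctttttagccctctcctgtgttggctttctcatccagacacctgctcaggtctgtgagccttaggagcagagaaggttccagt

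Ssbp3, chr4:106989874-106990134, intron 4 of 8: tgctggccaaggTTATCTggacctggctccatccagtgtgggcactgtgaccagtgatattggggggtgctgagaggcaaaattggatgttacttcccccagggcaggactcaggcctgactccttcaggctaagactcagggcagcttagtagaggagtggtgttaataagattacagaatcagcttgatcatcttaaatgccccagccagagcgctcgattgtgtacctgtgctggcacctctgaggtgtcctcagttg

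Lmo2, chr2:103949421-103949587, upstream, intergenic: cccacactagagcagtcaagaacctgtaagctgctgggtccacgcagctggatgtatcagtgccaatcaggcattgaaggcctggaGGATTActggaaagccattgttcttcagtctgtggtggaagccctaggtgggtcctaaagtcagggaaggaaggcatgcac

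Lmo1, chr7:109196703-109196772, upstream, intergenic: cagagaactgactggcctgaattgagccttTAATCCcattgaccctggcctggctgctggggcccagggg

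Ldb1, chr19:46037216-46037353, inside the gene: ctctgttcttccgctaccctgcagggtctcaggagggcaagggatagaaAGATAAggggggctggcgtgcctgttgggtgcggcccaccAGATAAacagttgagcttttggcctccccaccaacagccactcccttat

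The values of single libraries below are whole reads, recovered from the deposited mean of each peak, which is a sum of reads divided by the libraries' size factors (their relative depth). Where more than 1 set of reads gave that mean, the deposited fold change and standard error chose the set. Such reads could be recovered for 40 of the 44 member peaks. The 5 lower peaks had 1 to 5 sets each. Stronger peaks had many more, 5279 at Ssbp4 chr8:70609477-70609790 and 4514 at Ssbp3 chr4:106911316-106911499, of which 1 was kept at each. Reads of such peaks rest on that choice. Within a group the libraries are listed by falling size factor, which is not their replicate number. Normalized reads are reads divided by the size factor, and values after ± are SD over the 3 libraries of a group. The DMSO libraries had size factors of 1.35, 1.31 and 1.09 and the dTAG13 libraries of 0.961, 0.823 and 0.780, so on average the DMSO libraries were 1.46 times as deep. Those 40 peaks were shallow, with 11 to 215 reads over all 6 libraries, and the other 4 were the strongest members, with mean normalized counts of 49.96 to 78.4. A group at 0 reads was given a floor of 3 reads per library, and folds against it are lower bounds. Promoter peaks of 8 of 8 definitive endoderm markers were present in the peak lists of both groups. Of 2 neural markers 1 had such a peak in DMSO and 2 in dTAG13, of 2 paraxial mesoderm markers 1 and 0, and of 2 extra-embryonic endoderm markers 1 and 1. The part of other cell types in the results was not tested.

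Ssbp3 is the SSBP gene with the most peaks and holds the member peak with the lowest fold change. The first of its peaks lies 83343 bases into the gene, in intron 4, and had 32, 30 and 39 reads in the DMSO libraries and 0 in each of the dTAG13 libraries. Every DMSO library was high and the groups did not overlap. The normalized reads were 23.7, 22.9 and 35.8 in DMSO, a mean of 27.5 ± 7.23 (n = 3), at least 7.76-fold higher than in dTAG13. The authors' deposited table gives it a log2 fold change of -6.98 (adjusted p 2.55e-05, SE 1.25), rank 3 of all peaks from the most negative and rank 56 by p. Its OTX consensus, at positions 73 to 78 from the 5′ end of the printed sequence, lies 22 bases before the midpoint of the peak.

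A second Ssbp3 peak in the same intron was also lower, at a midpoint distance of 4040 bases from the first. It had 38, 19 and 43 reads in the DMSO libraries and 2, 6 and 2 in the dTAG13 libraries. The normalized reads were 27.4 ± 12.5 in DMSO and 3.98 ± 2.88 in dTAG13 (n = 3 each), 6.88-fold higher in DMSO. The lowest DMSO library, at 14.5 normalized reads, still lay above the highest dTAG13 library, at 7.29. In the authors' deposited table the log2 fold change of this peak is -2.79 (adjusted p 0.00133, SE 0.62). No OTX consensus lies within 100 bases of its midpoint, and its GATA consensus is 115 bases before the midpoint, outside the window searched.

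None of the 7 Ssbp3 peaks annotated as promoter peaks was called. The peak nearest to an annotated start site (chr4:106911316-106911499, over an exon) had 41, 51 and 35 reads in DMSO and 38, 18 and 32 in dTAG13. The groups overlapped, at 33.8 ± 4.53 and 34.2 ± 10.7 normalized reads (n = 3 each). Its log2 fold change in the authors' deposited table is 0.02 (adjusted p 0.983, SE 0.31). The strongest Ssbp3 peak, 1937 bases before the first start site, has a mean normalized count of 78.4 and a log2 fold change of -0.35 (adjusted p 0.337, SE 0.20) in the authors' deposited table. A weaker peak 1461 bases before the start site had 14, 14 and 13 reads in DMSO and 28, 12 and 12 in dTAG13, and all its dTAG13 values lay above those of DMSO after normalization. It was not called in the authors' deposited table (log2 fold change 0.86, adjusted p 0.290, SE 0.46). A weak promoter peak 14384 bases into the gene, chosen after its values were seen, had 4, 7 and 14 reads in DMSO and 0, 0 and 1 in dTAG13. Its groups did not overlap, and the authors' deposited table lists it at -4.05 (adjusted p 0.0754, SE 1.46).

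Of the 16 Ssbp3 peaks, 13 had a negative log2 fold change in the authors' deposited table, among them 8 of the 9 outside promoters. Intron 4 alone held 7 peaks, 6 of them negative, with a median log2 fold change of -1.82 in the authors' deposited table, beside -0.44 for all intron peaks. Of all intron peaks 64.2% were negative. The 7 include the peak that chose the family, and only the 2 lower peaks described above were called. The intron 4 peak with a positive value had 4, 10 and 0 reads in DMSO and 6, 10 and 4 in dTAG13, and the groups overlapped. A lower peak was common among genes with many peaks: of the 299 genes with 12 to 20 peaks in the deposited table, 54.2% had at least 1 peak called lower and 13.0% at least 1 called higher. This range was chosen around the 16 peaks of Ssbp3 after its values were seen.

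The gene body of Ssbp3 also holds 3 peaks that the authors assigned to Gm12786. The one in intron 5 of 8 at chr4:107016303-107016448, 22332 bases from the first lower peak by midpoints, went the other way. It had 8, 7 and 9 reads in the DMSO libraries and 20, 16 and 23 in the dTAG13 libraries. The groups did not overlap, at 6.51 ± 1.54 and 23.3 ± 5.46 normalized reads (n = 3 each), 3.57-fold higher in dTAG13. The authors' deposited table gives this peak a log2 fold change of 1.85 (adjusted p 0.00991, SE 0.49).

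**Figure D1:**
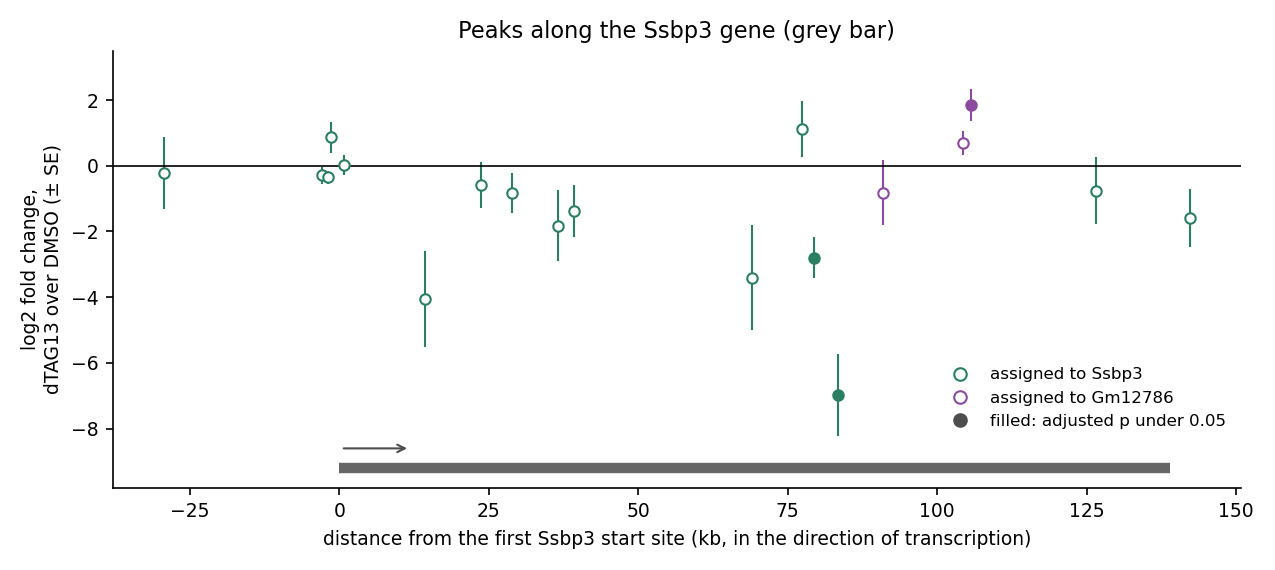
Deposited log2 fold change of dTAG13 over DMSO, with its standard error, of each peak along Ssbp3, against the distance in kb from the first start site; the grey bar is the gene and the arrow its direction. The 2 filled green points in intron 4 are the peaks at -6.98 and -2.79, the filled purple point at 1.85 is assigned to Gm12786, and the points around the start site lie near 0.

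Ssbp2, a paralogue of Ssbp3, had 7 peaks and no call. Its strongest peak, over an exon (chr13:91460640-91461210), has a mean normalized count of 78.03 and a log2 fold change of 0.48 (adjusted p 0.174, SE 0.22) in the authors' deposited table. It is also the Ssbp2 peak with the smallest p. Next to it, the peak nearest to the gene start had 30, 32 and 24 reads in DMSO and 10, 20 and 12 in dTAG13. Its groups overlapped after normalization, at 22.9 ± 1.34 and 16.7 ± 7.04 (n = 3 each), and the authors' deposited table gives a log2 fold change of -0.47 (adjusted p 0.559, SE 0.41). The peak upstream of Ssbp2, with 2, 3 and 6 reads in DMSO and 0 in dTAG13, is the only member peak without an adjusted p in that table.

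Ssbp4, the third SSBP gene, had 2 promoter peaks. The stronger (chr8:70609477-70609790), which is also the nearer to a start site, had 37, 46 and 32 reads in DMSO and 45, 26 and 29 in dTAG13. Its groups overlapped, and its log2 fold change in the authors' deposited table is 0.34 (adjusted p 0.565, SE 0.30). The other Ssbp4 peak was at -0.02 (SE 0.42) in the authors' deposited table.

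Ldb1, the adaptor on which the complex is built, had 5 peaks, all annotated as promoter peaks by the authors. The one called peak lies 7929 bases inside the gene and 1285 bases from the nearest of its annotated start sites. It had 24, 13 and 16 reads in the DMSO libraries and 2, 0 and 4 in the dTAG13 libraries. The groups did not overlap, at 14.1 ± 3.95 and 2.40 ± 2.58 normalized reads (n = 3 each), 5.87-fold higher in DMSO. Its log2 fold change in the authors' deposited table is -2.58 (adjusted p 0.0334, SE 0.80). It holds 2 matches to the GATA consensus and none to the OTX consensus.

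The other 4 Ldb1 peaks had log2 fold changes between -0.01 and 0.86 in the authors' deposited table, with overlapping groups. The strongest, over an exon next to an internal start site (chr19:46039507-46039799), had 37, 30 and 36 reads in DMSO and 35, 18 and 30 in dTAG13. Its log2 fold change in the authors' deposited table is 0.22 (adjusted p 0.754, SE 0.33). At the first start site, the peak had 35, 35 and 17 reads in DMSO and 17, 28 and 13 in dTAG13, with a log2 fold change of -0.01 (SE 0.39) in the authors' deposited table.

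Ldb2, the second LDB gene, had a single peak, at its start site (chr5:44799655-44799717). It was weak, with 7, 4 and 3 reads in DMSO and 5, 6 and 3 in dTAG13, and its groups overlapped. The authors' deposited table gives a log2 fold change of 0.56 (adjusted p 0.762, SE 0.85), which at this depth leaves a wide range of differences.

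Among the LMO genes, Lmo2, which bridges LDB1 to haematopoietic factors, had a called peak 8482 bases upstream of its first start site. The peak had 10, 13 and 11 reads in the DMSO libraries and 0 in each dTAG13 library. All DMSO libraries were above all dTAG13 libraries. The normalized reads were 9.14 ± 1.51 in DMSO (n = 3), at least 2.58-fold higher than in dTAG13. The authors' deposited table lists it at -5.40 (adjusted p 0.00690, SE 1.38). Its OTX consensus, at positions 87 to 92, lies 6 bases past the midpoint.

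The Lmo2 promoter peak (chr2:103969430-103969611), over an exon at an internal start site, also had an OTX consensus within the window but was not called. It had 14, 17 and 22 reads in DMSO and 19, 12 and 10 in dTAG13. The groups overlapped, at 14.5 ± 5.09 and 15.7 ± 3.61 normalized reads (n = 3 each), and its log2 fold change in the authors' deposited table is 0.14 (adjusted p 0.900, SE 0.46). An intronic Lmo2 peak 3135 bases into the gene holds the third OTX consensus of this gene, with 3, 6 and 6 reads in DMSO and 2, 0 and 0 in dTAG13. It was not called in the authors' deposited table (log2 fold change -2.44, adjusted p 0.371, SE 1.50).

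Lmo1, a LIM-only gene known as an oncogene of T cells, had 2 intergenic peaks upstream, both at 0 in dTAG13. The called one, 21531 bases upstream of the first start site, had 6, 8 and 8 reads in the DMSO libraries. The normalized reads were 5.96 ± 1.46 (n = 3), at least 1.69-fold higher than in dTAG13. The authors' deposited table gives -4.78 (adjusted p 0.0353, SE 1.50), the call nearest to the threshold among the members. The OTX consensus of this peak lies on the minus strand at positions 31 to 36 of the printed sequence, 2 bases before the midpoint.

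The neighbouring Lmo1 peak, 16688 bases upstream, had 6, 6 and 6 reads in DMSO and 0 in dTAG13. The normalized reads were 4.84 ± 0.579 in DMSO (n = 3), at least 1.37-fold higher than in dTAG13. It just missed the threshold in the authors' deposited table, at a log2 fold change of -4.48 (adjusted p 0.0692, SE 1.58), and had no OTX consensus. At the Lmo1 promoter (chr7:109170605-109170712), DMSO had 14, 18 and 8 reads and dTAG13 had 15, 13 and 10. These groups overlapped, with a log2 fold change of 0.48 (adjusted p 0.632, SE 0.50) in the authors' deposited table.

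**Figure D2:**
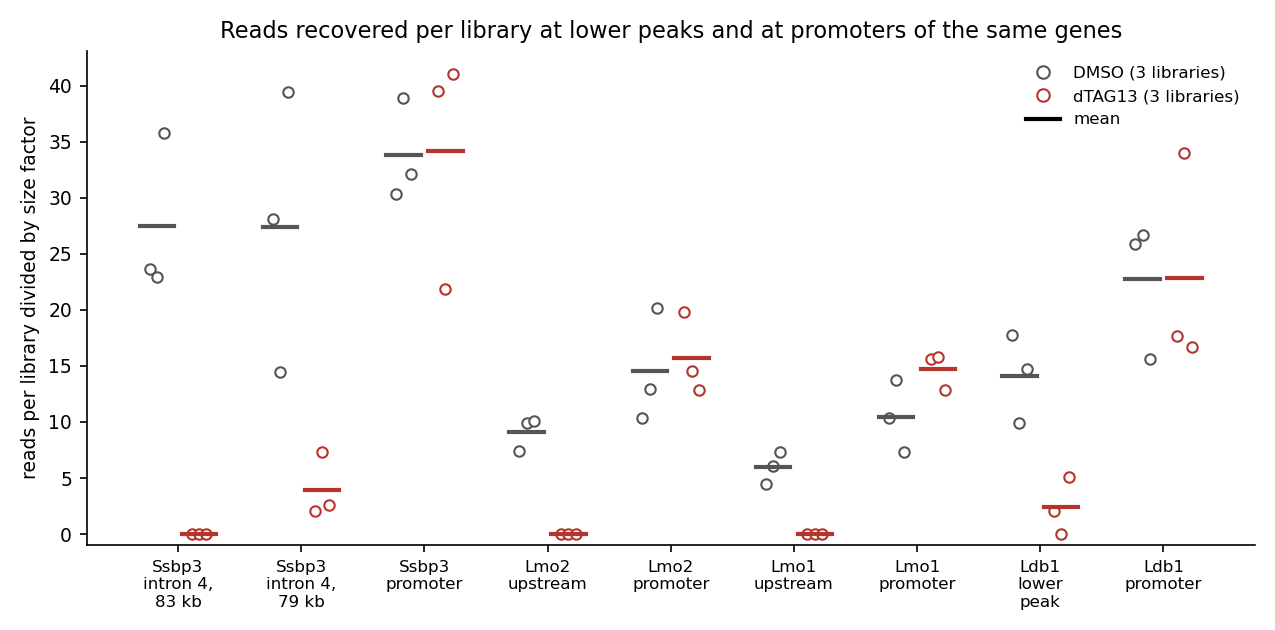
Normalized reads of each library (open circles) and group means (bars) at the 5 lower peaks and at a promoter peak of each of the same genes, DMSO in grey and dTAG13 in red; kb are distances from the first Ssbp3 start site. At the lower peaks every DMSO library lies above every dTAG13 library, with 0 reads in dTAG13 at 3 of the 5, whereas the groups overlap at the 4 promoters. The lower peaks were chosen by their call and the promoters among uncalled peaks, so this difference follows in part from the choice. The Ssbp3 promoter peaks 1461 bases before the start site and 14384 bases into the gene, not shown, had groups that did not overlap.

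Lmo3, a LIM-only gene of neural tissue, and Lmo4, a widely expressed one, had no called peak. The 2 peaks of Lmo3, both at promoters, are listed at log2 fold changes of 0.46 and 0.55 in the authors' deposited table, with SE of 0.57 and 0.68. The first had 8, 10 and 20 reads in DMSO and 6, 12 and 18 in dTAG13, and the second 4, 18 and 5 against 10, 13 and 4, so the groups of both overlapped. The strongest Lmo4 peak (chr3:144205443-144205749), 376 bases before the start site, has a mean normalized count of 49.96 and a log2 fold change of 0.05 (adjusted p 0.933, SE 0.25) in the authors' deposited table. At the Lmo4 start itself, DMSO had 18, 16 and 6 reads and dTAG13 had 4, 4 and 10, with overlapping groups and a log2 fold change of -0.54 (adjusted p 0.690, SE 0.65) in the authors' deposited table. The Lmo4 peak with the smallest p, 37012 bases upstream, had 10, 4 and 0 reads against 2, 0 and 2 and was at -1.19 (adjusted p 0.682, SE 1.38) in the authors' deposited table.

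The members were then described by position. The 24 promoter peaks had a median log2 fold change of 0.10 in the authors' deposited table, beside -0.00 for all promoter peaks, and 10 of the 24 (41.7%) were negative, against 50.1%. The 20 peaks outside promoters had a median of -1.49 in the authors' deposited table, beside -0.39 for all such peaks. Of these, 17 (85.0%) were negative, against 63.3% of all peaks outside promoters. The 6 intergenic peaks were all negative, from -5.40 to -0.22 in the authors' deposited table. By the same division, 4 of the 19 peaks outside promoters that have an adjusted p (21.1%) were called lower in the authors' deposited table, beside 5.24% of all, and 1 of 24 promoter peaks (4.17%), beside 1.59%. Over all 44 members the median was -0.41, with quartiles of -1.65 and 0.31, and over all peaks of the authors' deposited table it was -0.18, with quartiles of -1.01 and 0.39. Because these values chose the family, nothing particular to it can be read from them.

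**Figure D3:**
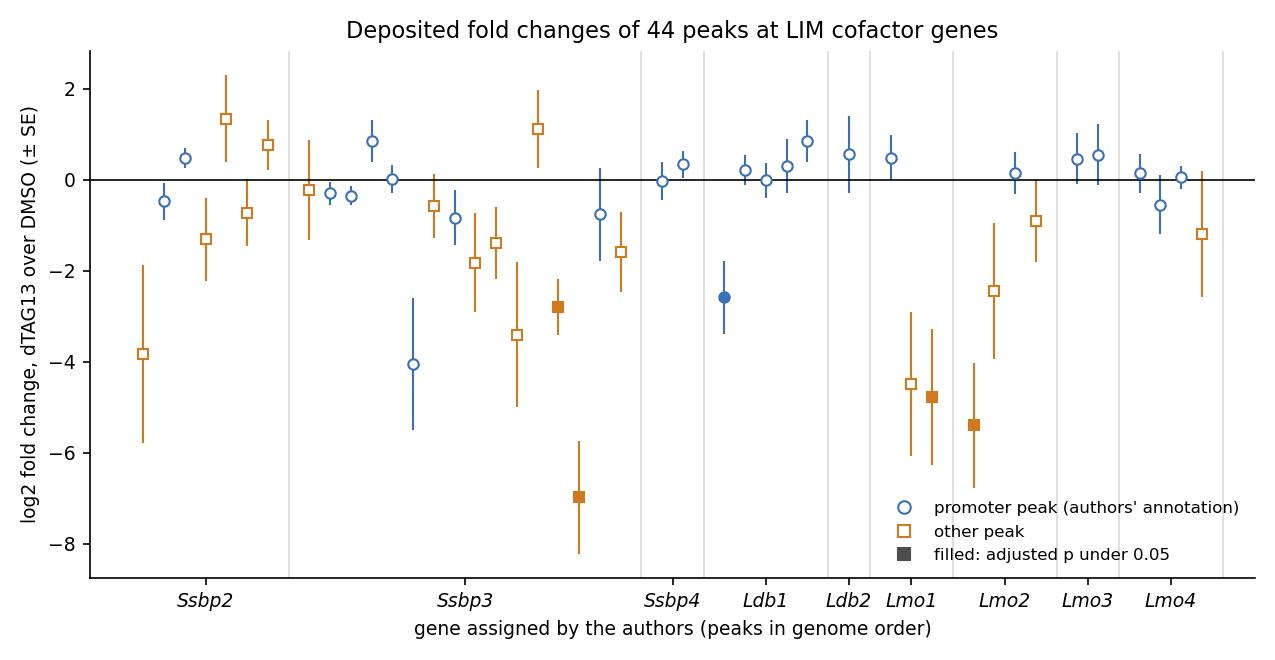
Deposited log2 fold change of dTAG13 over DMSO, with its standard error, of the 44 member peaks, by gene and in genome order; blue circles are promoter peaks, orange squares other peaks, and filled symbols have an adjusted p under 0.05. The promoter peaks lie between -0.83 and 0.86 apart from 1 at Ssbp3 and 1 at Ldb1, and the values below -4 are at Ssbp3, Lmo1 and Lmo2.

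Most members were weak peaks. The 24 members with a mean normalized count under 10 had a median log2 fold change of -1.25 in the authors' deposited table, and the 20 with at least 10 had 0.10. Over all peaks of the authors' deposited table the same medians were -0.47 and 0.02. Of the 5 called members, 3 had a mean normalized count under 10.

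**Figure D4:**
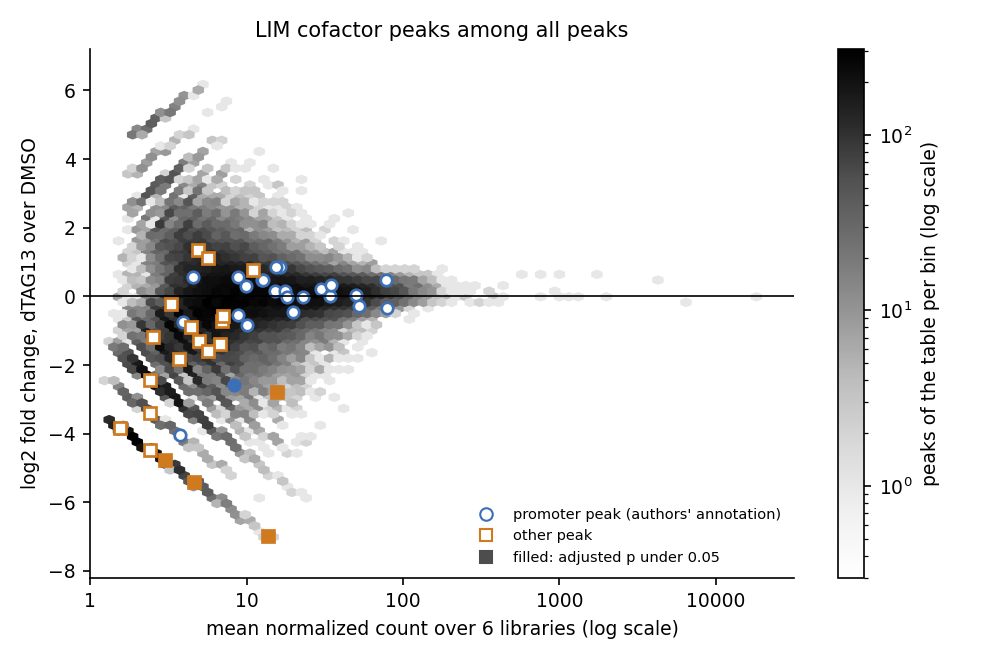
Mean normalized count of each peak (log axis) against its deposited log2 fold change, with all 70494 peaks as grey bins and the 44 members as symbols; blue circles are promoter peaks, orange squares other peaks, and filled symbols have an adjusted p under 0.05. The lowest diagonal band holds peaks with 0 reads in dTAG13, among them 5 members, and members with the highest counts lie near 0.

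The OTX consensus was present within 100 bases of the midpoint in 7 of the 44 member peaks (15.9%), against 8.81% of all peaks. Of these 7 peaks 3 lay at Lmo2, 2 at Ssbp3, 1 at Lmo1 and 1 at Ssbp2. At 1 of the 2 Ssbp3 peaks (chr4:106979737-106979803, not called) the match lay outside the peak's own bases. The strongest Ssbp3 peak (chr4:106908517-106909010), also not called, held a match in its own bases but outside the window, and is not among the 7. Counted over the peaks' own bases, the number was also 7. In the authors' deposited table, 3 of the 7 (42.9%) were called lower, beside 15.1% of all peaks with the consensus. The remaining 37 members included 2 lower calls, 5.56% of the 36 with an adjusted p, beside 2.73% of all peaks without the consensus in the authors' deposited table. The median log2 fold change of the 7 was -3.41 in the authors' deposited table, beside -1.32 for all peaks with the consensus. The 7 include the Ssbp3 peak whose fold change chose the family. Nothing particular to the members can therefore be read from these calls and fold changes. Of all lower peaks of the table, 34.1% had the consensus.

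Other letters were searched in the same window, on both strands. The same letters reversed, ATTAGG, were in 1 member peak (2.27%, against 7.06% of all peaks), and the LIM homeodomain core TAATTA in 1 (2.27%, against 4.72%). The GATA consensus AGATAA was in 7 (15.9%, against 15.6%), the E-box CAGCTG in 9 (20.5%, against 16.7%) and the TEAD consensus GGAATG in 6 (13.6%, against 11.5%). Of the 5 members called lower, 1 had the GATA consensus in this window, beside 30.1% of all lower peaks. TGTTTAC, for FOX factors, was in 3 (6.82%, against 5.33%), ACAATG, for SOX factors, in 2 (4.55%, against 10.2%), and ATCAAAG, for TCF/LEF, in 0, against 2.83%. These shares are matches of letters and do not show binding.

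The authors also deposited 1 list of peaks for each group, called over its 3 libraries together. Of the 44 members, 18 (40.9%) overlapped both lists, against 48.2% of all peaks, 21 (47.7%) the DMSO list alone, against 40.1%, and 5 (11.4%) the dTAG13 list alone, against 11.8%. All 5 called members were in the DMSO list alone, and the share among all lower peaks was not counted. A lower call and absence from the dTAG13 list both reflect low signal in dTAG13, so the 5 are no separate result about the members. Outside promoters 16 of the 20 members (80.0%) were in the DMSO list alone, against 49.0% of all such peaks. The DMSO libraries were the deeper ones by the factor of 1.46 given above, and the part of depth in these shares was not tested.

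The proteins that the complex binds were described from a list of 23 genes, of which 22 had peaks, 104 in all. Of the 103 peaks with an adjusted p, 3 (2.91%) were called in the authors' deposited table, beside 5.26% of all peaks, 2 lower and 1 higher. The median log2 fold change over the list was -0.20 in the authors' deposited table, beside -0.18 over all peaks. Lhx1, the LIM homeodomain factor of the head organizer, had a single peak, at its promoter (chr11:84525431-84525710). It has a mean normalized count of 50.2 and a log2 fold change of 0.04 (adjusted p 0.956, SE 0.27) in the authors' deposited table.

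The lower calls of the list were at Lhx8 and Tcf3. The Lhx8 promoter peak, at a gene for a LIM homeodomain factor of the forebrain, had 19, 9 and 20 reads in DMSO and 0, 0 and 2 in dTAG13. The groups did not overlap, and the authors' deposited table gives -4.04 (adjusted p 0.0224, SE 1.19). With fold changes centred within deciles of GC content, this call was lost (adjusted p 0.0948). At Tcf3, which encodes E proteins that join LMO2 complexes, an intergenic peak had 30, 34 and 42 reads in DMSO and 10, 10 and 6 in dTAG13. Its normalized reads were 28.9 ± 8.56 and 10.1 ± 2.24 (n = 3 each), 2.87-fold higher in DMSO, with a log2 fold change of -1.50 (adjusted p 0.0232, SE 0.44) in the authors' deposited table.

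The higher call was a promoter peak of Lmx1a, a LIM homeodomain gene of the roof plate and midbrain. It had 0 reads in each DMSO library and 4, 7 and 6 in the dTAG13 libraries. The dTAG13 mean of 6.79 ± 2.31 normalized reads (n = 3) was at least 2.80-fold higher than in DMSO, and the authors' deposited table gives 5.51 (adjusted p 0.0106, SE 1.48). By family, calls were made at 2 of 42 peaks of LIM homeodomain genes (4.76%) and 1 of 30 peaks of haematopoietic and E-protein genes (3.33%). There were 0 calls at 2 peaks of the LDB1 ubiquitin ligase gene Rlim and 0 at 29 peaks of WNT enhanceosome genes. Of all peaks 5.26% were called, and differences between the families were not tested.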

How the data were processed

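ATAC-seq of 6 libraries, 3 per group, was used as deposited. The submitters' processing notes name fastp, Bowtie2, MACS2, featureCounts, HOMER 4.11, ChIPseeker and build mm10, with no role or order. The peak-calling threshold, read filters and handling of duplicates are not given in the sources used here. The authors' deposited table gives, per the file headers, a mean normalized count (the signal), a log2 fold change with its standard error, a score that is their ratio, a p-value and an adjusted p-value per peak. Deposited positions were made 1-based. Per the labels' protocols, cells were sorted live before library preparation.

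Reads per library were recovered for peaks with a mean normalized count up to 40. Size factors for which 6 times the mean is a sum of whole reads divided by them explained all 2561 peaks with dTAG13 at 0 and all 221 with DMSO at 0, each with 1 solution (tolerance 3e-07). Of the 40 member peaks, 33 were compared with the deposited log2 fold change (largest difference 7.67e-06), and the others had 1 solution or a group at 0. Where several sets of whole reads gave the mean, the set within 1e-05 of that fold change was kept. At those peaks the small difference follows from the choice and is not a check. Of 208 values above 0, 73.6% were even. The cause was not tested, and each read need not stand for a separate DNA fragment. Reads were recovered for too few peaks to run a count test over the table, so the authors' calls were used.

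Start sites came from GENCODE mouse release 21 and sequence from GRCm38.p6. Motifs were searched within 100 bases of the midpoint, and pooled lists overlapped from 1 base. For each gene the text names its called peaks, the one with the smallest p, the strongest and the nearest to a start site, and for the binding partners each called peak. Other peaks, and Lhx1, were chosen after their values were seen. Members and lists were chosen with earlier results of these data known. Alternatives covered threshold, zero point, filter, gene assignment, motif window and overlap. Functions were tested on simulated data. Python 3.11.15, numpy 2.4.6, pandas 2.3.3, scipy 1.17.1 and matplotlib 3.10.9 were used.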

Additional observations from a re-analysis of the deposited data

How the results depend on the processing

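The count of lower calls was 5 under every alternative threshold, zero point and gene assignment run and without a filter on weak peaks. Of these, 2 alternatives could not change it. Assignment by the nearest start site gave the same 44 peaks. The called members lay at log2 fold changes of -2.58 or lower, beyond the alternative threshold of 1 in absolute value. The share of all peaks called lower moved, from 3.79% as deposited to 2.97% with the median of all peaks at 0. It was 4.57% with that of peaks in both lists at 0, and 1.99% with that of each GC decile at 0. Without the filter it was 3.64%. With only peaks of a mean normalized count of at least 10, 2 of 20 members were called lower, beside 4.41% of all such peaks. The other 3 of the 5 lie below that count. The median log2 fold change of the 20 members left was 0.10 in place of -0.41. With the median of all peaks at 0, 1 member was called higher, Ssbp2 at chr13:91460640-91461210 (adjusted p 0.0417). Higher calls over all 69128 peaks then numbered 1958, in place of 1016. With the median of each GC decile at 0, 5 peaks of the binding partners were called in place of 3, while over all peaks 1379 were lower and 2258 higher. The cause was not tested. Setting the median of all peaks (-0.18) or of those in both lists (0.09) to 0 shifts every fold change by that much. Of 101 values of the 22 named peaks under the alternatives, 97 kept their direction and side of the threshold. The exceptions are Ssbp2, now past it, Lhx8 (adjusted p 0.0948), and a change of sign of 2 uncalled peaks near 0 when the median of peaks in both lists was set to 0: the Ssbp3 start-site peak (-0.0765 in place of 0.017) and the strongest Lmo4 peak (-0.0415 in place of 0.052). Leaving out single libraries was not run, since reads were recovered for part of the table only. No paired analysis was possible because the deposited table has 1 mean and 1 fold change per peak and the recovered libraries carry no replicate number. Few reads limit the weak peaks: a floor of 3 reads per library equals 3.54 normalized reads in dTAG13 and 2.42 in DMSO.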

Other observations

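The bodies of the member genes held 18 further peaks that the authors assigned to other genes, 8 of them in Ldb2, 4 in Lmo3, 3 in Ssbp3, 2 in Lmo1 and 1 in Lmo4. None of the 18 was called lower in the authors' deposited table, beside 3.79% of all peaks with an adjusted p. Called higher were 2, beside 1.47%: the Ssbp3 intron 5 peak described above and a peak in intron 1 of 8 of Ldb2. At an unadjusted p under 0.05 there were 2 lower and 4 higher, beside 19.7% of all peaks in either direction. These counts were not tested against the shares. The Ldb2 peak (chr5:44712343-44712480, assigned to Gm3364) had 0, 4 and 2 reads in DMSO and 15, 8 and 12 in dTAG13. Every dTAG13 library was above every DMSO library, at 13.6 ± 3.34 against 1.63 ± 1.54 normalized reads (n = 3 each). The authors' deposited table gives a log2 fold change of 3.08 (adjusted p 0.0112, SE 0.83). A second peak in the same intron had 5, 0 and 2 reads in DMSO and 5, 8 and 8 in dTAG13 and was not called (log2 fold change 2.17, adjusted p 0.146, SE 0.92, as in the authors' deposited table). Neither was counted with the single Ldb2 peak of the report, and they were named after their values were seen.

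Columns of the authors' deposited table mark genes as differentially expressed up or down, without values. The contrast and threshold behind the marks are not stated, so whether up means higher in dTAG13 is not known. Of the 9 member genes, Lmo1 was marked up and none was marked down, beside 1.60% and 1.38% of all genes with a peak. The upstream Lmo1 peaks were lower in dTAG13 and its promoter peak was not called, as given above.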
